A study of Mus musculus with 43 samples.

Results

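Ribosomal protein genes were followed with 100 sgRNAs in an in vivo CRISPR screen of mouse CD8+ T cells. The members are every row of the screen table whose gene symbol begins with *Rpl* or *Rps* followed by a digit, which gave 20 genes with 5 sgRNAs each out of 10640 sgRNAs in all (10390 against genes of metabolism, 5 per gene, and 250 nontargeting controls). Of the 20 genes, 11 are named for the large ribosomal subunit and 9 for the small one. The ribosome is built from a small subunit, which reads the mRNA, and a large subunit, which forms the peptide bond, and nearly every one of its proteins is needed for the assembly or the work of its subunit. Activated T cells make new ribosomes for each division, and cells that lose such a protein tend to drop out of a growing population, so that ribosomal protein genes commonly serve as positive controls for dropout in pooled CRISPR screens.

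All libraries came from CD90.1+ OT-I T cells, CD8+ cells with a Cas9 knock-in and a receptor for an ovalbumin peptide, which carried the lentiviral sgRNA library and its CD90.1 marker. The T0 group (3 libraries) is the in vitro cells taken on the day of transfer. The other cells had been given to mice with orthotopic KPC_OVA tumours, a mouse pancreatic cancer line that expresses ovalbumin, and were sorted 7 days later from primary tumour, lung, liver, peritoneal metastasis, spleen, draining lymph nodes or nondraining lymph nodes under anti-PD-1 or IgG. Every group has 3 libraries, except liver anti-PD-1 with 1, and liver IgG and peritoneal metastasis IgG with 2 each. The authors excluded 2 of 43 samples, so that 41 carried values. The recipients carried Cas9 as well, per the study's methods, and how many animals stand behind a library is not given in the sources used here. The labels call the replicates biological. One library of peritoneal metastasis anti-PD-1 (replicate 2) is titled so but has spleen as its tissue label. It was used by its title, and without it 19 of the 20 genes were still called depleted in that group. CD8+ identity could not be checked, because only sgRNAs were sequenced.

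The value of an sgRNA in a library is a signal, its read count after the authors' scaling to the nontargeting sgRNAs and their batch correction. The summed signal per library ran from 1788300 to 4228880, and the number of reads behind a value is unknown. For a gene, log2(signal + 1) was averaged over its 5 sgRNAs and set relative to the median nontargeting sgRNA of the library, and a change is the difference of that quantity from T0, which understates the loss of sgRNAs with a low signal. Many sgRNAs lie at 1 lowest value that several libraries share, which was read as undetected. At T0, 0 of the 100 ribosomal sgRNAs lay at it in any library.

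In the GRCm38.p6 annotation of RefSeq, 19 of the 20 genes are protein coding, each with 3 to 10 coding exons. *Rps3a3* is the exception and is annotated as a pseudogene, on the plus strand of chr13:108670580-108671443. Its parent is *Rps3a1* (minus strand of chr3:86137940-86142668, 6 coding exons), which encodes the small subunit protein RPS3A and is not among the genes of the library. The *Rps3a3* transcript of GENCODE (795 bases, found without a mismatch at chr13:108670603-108671397) lines up over its whole length with the coding sequence of *Rps3a1* (795 bases), with 9 differing bases and an identity of 98.9%. Bases 523 to 792 of both are shown because *Rps3a3* is the 1 gene of the 20 that was not called below T0, and capitals mark the 5 bases that differ in this stretch.
Rps3a3: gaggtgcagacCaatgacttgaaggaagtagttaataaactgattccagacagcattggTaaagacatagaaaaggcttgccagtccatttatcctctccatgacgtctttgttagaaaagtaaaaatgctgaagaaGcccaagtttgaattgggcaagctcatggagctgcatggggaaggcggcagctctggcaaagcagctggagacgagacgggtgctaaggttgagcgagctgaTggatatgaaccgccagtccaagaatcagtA
Rps3a1: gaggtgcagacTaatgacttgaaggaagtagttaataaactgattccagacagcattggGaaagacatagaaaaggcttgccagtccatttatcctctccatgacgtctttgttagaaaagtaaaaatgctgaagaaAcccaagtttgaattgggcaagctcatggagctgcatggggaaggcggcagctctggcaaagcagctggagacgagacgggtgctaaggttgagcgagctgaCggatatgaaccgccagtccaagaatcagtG
The *Rps3a3* sequence has 0 premature stop codons in the frame of *Rps3a1* and would change 2 amino acids. It holds 80 sites of 20 bases followed by NGG, the motif that Cas9 needs, on the 2 strands together. Of those sites, 55 also occur without a mismatch, with NGG after them, in the *Rps3a1* gene, and 25 do not. The sequences of the screen's sgRNAs were not used here, so which of these sites the 5 *Rps3a3* sgRNAs take was not tested.

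The first question was whether ribosomal sgRNAs were already low on the day of transfer, after culture of the edited cells. Their median signal was 229, 252 and 377 in T0 replicates 1, 2 and 3, beside 297, 295 and 194 for the nontargeting sgRNAs. On the log2 scale the ribosomal median thus lay 0.37 below the nontargeting median in replicate 1, 0.23 below it in replicate 2 and 0.96 above it in replicate 3, a mean of 0.12 ± 0.73 (SD, n = 3). The sign differed between replicates, so no shift at T0 larger than the spread between these 3 libraries was seen. The samples include no plasmid pool and no time before T0. Representation in the library and loss before transfer therefore cannot be told apart in these values. Over all gene-targeting sgRNAs the same difference was 0.16, 0.12 and 0.25.

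Replicate 3 was the highest of the T0 libraries for all 20 genes. The gap between replicates 3 and 1 ran from 0.47 on the log2 scale in *Rps3a3* to 1.85 in *Rps13*, with a median of 1.28 over the genes, whereas the median sgRNA of the whole library rose by 0.09. Relative to nontargeting sgRNAs, 17 of the 20 genes lay below 0 in replicate 1, 11 in replicate 2 and 0 in replicate 3. RNA polymerase subunits (26 genes) and proteasome subunits (10 genes), which dividing cells need as well, were compared by their median sgRNA. Their gaps between the same libraries were 0.80 and 0.86, beside 1.33 for the median ribosomal sgRNA. The T0 reference for these genes therefore differed between replicates in a way that it did not for the library as a whole.

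At 7 days after transfer, the ribosomal protein genes had fallen far below their level at T0 outside the lymph nodes, with the exception of *Rps3a3*. Averaged over the 10 groups outside lymph nodes, limma with Benjamini-Hochberg adjustment over all genes called 19 of the 20 genes lower, where 15.3% of all genes were called. The median change was -5.76 over the 20 genes and -0.55 over all genes. The 10 genes with the largest decrease of the whole library include 7 ribosomal ones. In 19 of the 20 genes each of the 26 libraries outside lymph nodes lay below every T0 library, which held for 16.2% of all genes.

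The 11 genes of the large subunit were all called lower, with changes from -6.86 to -5.05 and a median of -5.85. *Rpl36* fell most among them, by 6.86 ± 0.67 (SE, adjusted p = 6.63e-12 in limma). Set against the T0 mean, *Rpl36* ran from -7.54 to -6.37 in the 6 primary tumour libraries (median -6.93) and from -7.98 to -4.98 in the 6 lung libraries (median -7.12). It lay at -6.52, -6.41 and -6.39 in the 3 liver libraries and from -8.09 to -5.74 in the 6 of spleen. None of these ranges reached the T0 libraries, which spanned -0.50 to 0.77 for the gene.

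*Rpl9*, a large subunit protein that the study names as an example of an essential gene, fell by 6.35 ± 0.59 (SE, adjusted p = 2.94e-12 in limma). Its libraries ran from -7.08 to -5.29 in primary tumour (median -6.29), from -7.30 to -5.31 in lung (median -6.28) and from -7.22 to -6.09 in spleen (median -6.60). In liver they lay between -6.99 and -5.87 and in peritoneal metastasis between -7.45 and -5.88. The *Rpl9* ranges of all 5 organs overlapped, and its 5 sgRNAs were the most alike of the 20 genes, within 0.96 of each other. These sgRNAs lay at the undetected value in 10 to 19 of the 20 libraries of primary tumour, liver, peritoneal metastasis and spleen, which limits how far they can differ.

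*Rpl27* (-6.81) and *Rpl3* (-6.73), a protein close to the site of peptide bond formation, lay between *Rpl36* and *Rpl9*, and *Rpl30* (-6.22) followed *Rpl9*. *Rpl11* (-5.85) and *Rpl5* (-5.67), which together with the 5S rRNA form a particle that also binds MDM2, fell by similar amounts, as did *Rpl34* (-5.40). *Rpl6* and *Rpl35a* fell least among the large subunit genes, each by 5.05, with a standard error of 0.67 and 0.64. *Rpl35a* was also the 1 gene besides *Rps3a3* that missed the threshold in a group outside lymph nodes, the single library of liver anti-PD-1, at a change of -3.74 (adjusted p = 0.0514 in limma).

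Of the 9 small subunit genes, 8 were called lower. *Rps13*, which takes part in a contact between the subunits, had a change of -6.88 ± 0.59 (SE, adjusted p = 7.90e-13 in limma). The 26 libraries outside lymph nodes kept within -7.46 and -6.25, the narrowest span of the genes described by library here, and the T0 libraries within -0.80 and 1.05. Each *Rps13* sgRNA lay at the undetected value in at least 18 of the 20 libraries of primary tumour, liver, peritoneal metastasis and spleen, which limits that span. Its most depleted sgRNA (s_05668) had signals of 192, 249 and 362 at T0 and at most 0.168 in each of the 26 libraries outside lymph nodes. *Rps19*, the gene most often mutated in Diamond-Blackfan anaemia, changed by -6.68, *Rps7* by -6.60 and *Rps9*, a protein near the entry of the mRNA channel, by -5.57.

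*Rps27*, a zinc finger protein of the small subunit, fell less, with a change of -4.96 ± 0.68 (SE, adjusted p = 4.16e-08 in limma). It ran from -5.89 to -3.77 in primary tumour (median -4.50), from -7.31 to -3.52 in lung (median -6.08), from -5.24 to -3.44 in peritoneal metastasis and from -6.07 to -4.06 in spleen (median -4.93), and lay at -5.59, -4.44 and -3.59 in liver. *Rps24*, another gene mutated in Diamond-Blackfan anaemia, had the smallest decrease of the coding genes, with a change of -4.42 ± 0.72 (SE, adjusted p = 1.47e-06 in limma). Its range was -4.35 to -2.65 in primary tumour (median -3.39), -7.27 to -2.96 in lung (median -5.53), -4.65 to -3.66 in peritoneal metastasis and -6.20 to -2.99 in spleen (median -4.65), with -5.43, -4.26 and -3.55 in liver. Both genes still lay below every T0 library in all 26 libraries.

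*Rps3a3* did not pass the test in any of the 10 groups, with a change of -1.07 ± 0.78 (SE, adjusted p = 0.775 in limma, 95% interval -2.64 to 0.50) over all of them. The fit takes its spread from all 41 libraries. They include the 12 of lymph nodes, where *Rps3a3* ran from -0.65 to 4.71, so that scatter enters the standard error and the interval. *Rps3a3* ran from -1.23 to -0.22 in primary tumour (median -0.73), from -2.54 to -0.87 in lung (median -1.39) and from -1.65 to -0.56 in spleen (median -0.73). In liver it lay at -1.80, -1.45 and 0.23, and in peritoneal metastasis between -1.86 and 0.07. Of the 26 libraries, 22 were below all T0 libraries, which spanned -0.23 to 0.35. In none of the 26 did *Rps3a3* fall as low as the least depleted value of another of the 20 genes, -2.65 for *Rps24* in a primary tumour library. Over the 20 libraries of primary tumour, liver, peritoneal metastasis and spleen its 5 sgRNAs changed by -1.74 to -0.36. The median over all gene-targeting sgRNAs was -0.43, and of the 5 only s_10061 lay above it. Over the 10 groups the median change of all genes was -0.55, beside -1.07 for *Rps3a3*.

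By group, the counts of depleted ribosomal genes hardly varied. In primary tumour limma called 19 of 20 lower under IgG, where 11.5% of all genes were called, and 19 under anti-PD-1, where 11.9% were. In lung the count was 19 under IgG (18% of all genes) and 19 under anti-PD-1 (16.6%). Spleen gave 19 under IgG (12.2% of all genes) and 19 under anti-PD-1 (12.8%). In peritoneal metastasis 19 were lower under IgG (11.2% of all genes) and 19 under anti-PD-1 (13%). Liver gave 19 under IgG (10.8% of all genes) and 18 in the single anti-PD-1 library (6.16%), whose spread was taken from the other groups. Together, 189 of the 190 tests of the 19 coding genes in these groups passed, with changes from -7.78 to -3.18.

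The organs were compared directly for the size of the loss. A moderated F-test between the 5 organs outside lymph nodes, each organ the mean of its treatments, called 0 of the 20 genes, and 0.241% of all genes (limma, lowest adjusted p among the 20 genes 0.959). The study's methods state that batch effects between organs were corrected, which came before this test. In the deposited values the shared lowest value differs by replicate number and is the same across organs. For s_02986 of *Rpl27* it was 0.228 in replicate 1, 0.119 in replicate 2 and 0 in replicate 3. What the correction removed was not tested. Many ribosomal sgRNAs also lay at the undetected value, so a count of 0 cannot show that the organs are alike. At an unadjusted p under 0.05 there was 1 ribosomal gene, *Rpl34*, beside 4.91% of all genes. The change of *Rpl34* was -4.55 in primary tumour, -4.82 in liver, -5.38 in peritoneal metastasis, -5.67 in spleen and -6.57 in lung. The median over the 20 genes was -5.44 in primary tumour, -5.61 in liver, -5.91 in spleen, -6.06 in peritoneal metastasis and -6.31 in lung. All genes of the library moved in the same order at its ends, with medians of -0.22 in primary tumour and -1.21 in lung, so that relative to all genes the ribosomal median lay at -5.22 in primary tumour and -5.10 in lung. *Rps24* kept its place as the least depleted coding gene in primary tumour (-3.41), lung (-5.34) and peritoneal metastasis (-4.10), whereas *Rpl35a* held it in liver (-4.43) and *Rpl6* in spleen (-4.53).

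With the median of a gene's sgRNAs in place of their mean, 1 of the 20 ribosomal genes was called different between organs, *Rpl11* (adjusted p = 0.0290 in limma), where 1.49% of all genes (31) were called. Its median sgRNA changed by -5.04 in primary tumour and by -7.57 to -7.20 in the other 4 organs, whereas the mean over its sgRNAs gave -5.17 and -6.80 to -5.64. The share of undetected sgRNAs differed in the same direction. A median of 48.5% of the ribosomal sgRNAs lay at the shared lowest value in the primary tumour libraries, 65% in spleen, 68% in liver and in peritoneal metastasis and 81.5% in lung, beside 1%, 4.6%, 2%, 2.8% and 16.6% of the nontargeting sgRNAs. In each of the 26 libraries the ribosomal share was the higher one, by 37.2 to 70.8 percentage points. Both shares were lowest in primary tumour and highest in lung, and the part of the control share in the organ difference of *Rpl11* was not tested.

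Whether checkpoint treatment changed the loss was tested as anti-PD-1 minus IgG, averaged over the 5 organs outside lymph nodes. Limma called 0 of the 20 genes, and 0.0962% of all genes, at adjusted p values of 0.9997 for the ribosomal genes. The differences ran from -1.03 in *Rps24* to 0.84 in *Rpl11*, with a median of -0.0042 over the 20 genes and 0.07 over all genes. For *Rpl9* the difference was 0.15 (95% interval -0.65 to 0.96), and for *Rps13* it was -0.02 (-0.82 to 0.79). The sgRNAs of these 2 genes lay mostly at the undetected value, so the intervals cannot bound a treatment difference in loss. *Rps24* was the 1 ribosomal gene at an unadjusted p under 0.05, beside 3.22% of all genes. Its difference was smallest in primary tumour, at -0.47, and largest in lung, at -1.64. The difference of *Rpl11* ran from 0.14 in peritoneal metastasis to 1.24 in lung, and its interval over the 5 organs, -0.0098 to 1.70, includes 0. Both genes were singled out from the 20 for the lowest and the highest difference, and the liver values rest on 1 anti-PD-1 library. By organ, the median difference over the 20 genes was -0.24 in primary tumour, -0.19 in lung, 0.50 in liver, 0.21 in peritoneal metastasis and -0.14 in spleen, and the lowest adjusted p of any of these 100 values was 0.930 in limma.

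At the level of single sgRNAs, limma called 83 of the 100 ribosomal sgRNAs lower over the 10 groups outside lymph nodes, where 8.08% of the 10390 gene-targeting sgRNAs were called. The median change was -6.35 among the ribosomal sgRNAs and -0.57 among all. All 5 sgRNAs were called in 9 genes, 4 in 8 genes, 3 in *Rpl35a* and *Rps24*, and 0 in *Rps3a3*. The 17 sgRNAs that were not called are thus the 5 of *Rps3a3* and 12 that are spread over 10 other genes.

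Over the 20 libraries of primary tumour, liver, peritoneal metastasis and spleen, 77 of the 100 sgRNAs changed by less than -5, beside 5.36% of all gene-targeting and 0% of nontargeting sgRNAs. Another 8 lay between -5 and -3, and 15 lay above -3, of which 10 were not against *Rps3a3*. In 8 genes all 5 sgRNAs were below -5. Besides those of *Rps3a3*, the sgRNAs above -3 included 1 each against *Rpl5*, *Rpl6*, *Rpl11*, *Rpl34*, *Rpl35a* and *Rps27*, and 2 against *Rps24*.

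In *Rpl6* and *Rpl5* a single sgRNA stood far from the other 4. The *Rpl6* sgRNA s_02998 changed by -0.51, a gap of 4.77, and had signals of 411 to 1008 at T0, 129 to 696 in primary tumour (median 332), 205 to 905 in liver and 98.0 to 739 in spleen (median 411). In *Rpl5*, s_10090 changed by -1.34, a gap of 4.46, from 140 to 158 at T0 to a median of 52.5 and at most 246 in primary tumour. For both sgRNAs the primary tumour range overlapped that of T0.

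In *Rpl35a* and *Rps24* the sgRNAs were more evenly spread. The *Rpl35a* sgRNAs spanned from -7.38 to -1.43, and the least depleted, s_04803, kept signals of 204 to 319 in the primary tumour (median 263) from 890 to 1176 at T0. The least depleted of *Rps24*, s_03054, changed by -2.26 and the most depleted, s_03052, by -6.57. In *Rps27*, s_04764 changed by -1.88, with a gap of 2.48 to the next sgRNA. The single weak sgRNAs of *Rpl11* (s_05360) and *Rpl34* (s_05769) changed by -2.86 and -2.30. In *Rps3a3* the most depleted sgRNA, s_10064, went from 886 to 1017 at T0 to 140 to 398 in primary tumour (median 247). The least depleted, s_10061, had 430 to 656 at T0 and 147 to 820 in primary tumour (median 462), a range that takes in all its T0 values.

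Against the controls of the same library, however, 0 of the 100 ribosomal sgRNAs were retained. An sgRNA was called retained where its change lay above the 25th percentile of the nontargeting sgRNAs in at least 15 of these 20 libraries, which held for 47.0% of all gene-targeting and 62.4% of nontargeting sgRNAs. Among those near the limit were s_10061 and s_10063 of *Rps3a3*, above it in 13 libraries each, s_02998 of *Rpl6* in 12, and s_10062 and s_10065 of *Rps3a3* in 10 each. At the other end, 74 of the 100 were above it in none, beside 5.82% of all gene-targeting and 0% of nontargeting sgRNAs. With the 10th percentile as the limit 6 ribosomal sgRNAs were retained, beside 76.6% of all gene-targeting and 92.8% of nontargeting sgRNAs.

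A signal over 100 gives the same picture in absolute terms. At T0, 98% of the 300 pairs of a ribosomal sgRNA and a library had one. In primary tumour 23 of the 30 pairs of *Rps3a3* did (76.7%), and 34 of the 570 pairs of the other 19 genes (5.96%). The other genes gave 6.14% in lung, 4.56% in liver, 5.89% in peritoneal metastasis and 5.61% in spleen, beside 70%, 60%, 72% and 60% in *Rps3a3*. The shares over all sgRNAs were not computed for these organs. Across the 26 libraries outside lymph nodes the median signal was 103 to 261 for nontargeting sgRNAs and 87.0 to 222 for gene-targeting ones.

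The lymph nodes could not be read on the same scale. There 46.0% to 94.0% of nontargeting sgRNAs lay at the shared lowest value, so that the control median to which changes are set is itself near undetected. Limma called 0 of the 20 genes lower in draining lymph nodes under IgG, where 0% of all genes were called lower and 0 genes had an unadjusted p under 0.05 in that direction. The count was also 0 under anti-PD-1 there (0% of all genes) and 0 in nondraining lymph nodes under IgG (0%) and anti-PD-1 (0%). The median change of the 20 genes was -0.32 to -0.12 in these 4 groups, and that of all genes 1.37 to 2.08. The gap between them, -2.30 to -1.60, does not depend on the centring, whereas the ribosomal median by itself was -7.65 to -7.49 with the values as deposited and -2.57 to -1.90 with centring on the nontargeting mean.

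Undetected sgRNAs were still more common among the ribosomal ones in the lymph nodes. Their share was 85% to 98% and exceeded that of nontargeting sgRNAs in 12 of 12 libraries, by 4.0 to 39.0 percentage points with a median of 16.1. A signal over 100 was seen in 58 of 1200 pairs of a ribosomal sgRNA and a lymph node library (4.83%), beside 19.6% of nontargeting and 19.9% of gene-targeting pairs. *Rps3a3* held 18 of its 60 pairs, whereas *Rpl35a* held 6, *Rps24* 5 and *Rpl6* 4 of 60. *Rpl9* and *Rps7* held 0 of 60. *Rps3a3* was also the 1 ribosomal gene called higher in a lymph node group, draining lymph nodes under IgG, at 3.12 ± 1.04 (SE, adjusted p = 0.0207 in limma), where 35% of all genes were called higher. With anti-PD-1 the draining nodes had 28.2% of all genes called higher and 0 ribosomal ones, and in nondraining lymph nodes 6.74% under IgG and 8.95% under anti-PD-1, again with 0 ribosomal ones.

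The loss outside lymph nodes, taken over the organs together, did not rest on 1 replicate number. Within replicates 1, 2 and 3, the median ribosomal change outside lymph nodes was -5.67, -5.92 and -6.38 when each library was set against the T0 library of its own number. *Rps3a3* had medians of -0.74, -0.45 and -1.68 there, and the least depleted of the other genes had a median of -3.74, -4.16 and -4.75. Replicate 3 had the highest ribosomal T0 level and the largest change. Its T0 library enters both values, so they are not independent.

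Other genes that dividing cells need fell as well, by less. RNA polymerase subunits were called lower over the 10 groups in 24 of 26 genes with a median of -4.94, and proteasome subunits in 10 of 10 with a median of -4.98. Of the cytosolic aminoacyl-tRNA synthetases the library held 2, *Eprs* and *Mars*, both called lower with a median of -5.14, and of cytosolic translation factors and mitochondrial ribosomal proteins 0. At the sgRNA level 57.7% of the RNA polymerase sgRNAs and 68% of the proteasome sgRNAs were called lower, with medians of -4.78 and -4.91. Whether these lists differ from the ribosomal genes was not tested.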

How the data were processed

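The authors counted sgRNA reads with MAGeCK-VISPR 0.5.3 and scaled the counts by the 250 nontargeting sgRNAs. Their methods state that ComBat then corrected batch effects between organs. The deposited signal is therefore not a count, its read depth is unknown, and no count test, interval or floor was used. Apart from 0, values are not whole. After ComBat the undetected value differs between sgRNAs and between replicate numbers, and libraries of different organs share it within a replicate number. The genome build of the sgRNA design is not given in the sources used here.

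From the signal, log2(value + 1) was averaged over the 5 sgRNAs of a gene, or used per sgRNA, and centred on the nontargeting median of the library. limma 3.58.1 (R 4.3.3) fitted 41 libraries with 1 mean per group, and an adjusted p of at most 0.05 over 2078 genes, or 10390 sgRNAs, was called. The fit was tested on simulated data. Python 3.11.15 with pandas 2.3.3 made the other values. A value was read as undetected where libraries of 1 replicate number shared an sgRNA's lowest value (relative tolerance 1e-09).

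The members and lists were chosen with earlier results of these data known. Described by library were the 3 members with the largest and the 3 with the smallest decrease, *Rpl9* and *Rps13*. Other members are given by their change, and some items are not reported here. sgRNAs singled out and the subset of genes without *Rps3a3* were chosen after their values were seen. Alternatives were another pseudocount, the median over sgRNAs, other centrings, a filter on low sgRNAs, lowest values set to 0, fewer groups, a replicate block and each library left out.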

Additional observations from a re-analysis of the deposited data

How the results depend on the processing

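Leaving out the 10% of sgRNAs with the lowest mean signal over all libraries removed 81 of the 100 ribosomal sgRNAs and kept 11 of the 20 genes. Under this filter the depleted ribosomal genes numbered 0 in primary tumour under IgG and 2 under anti-PD-1 (10 and 36 of all genes), 5 and 5 in lung (154 and 149), 4 and 4 in spleen (29 and 43), 2 and 3 in peritoneal metastasis (28 and 61), and 3 and 0 in liver (21 and 0), each with IgG first. The depleted ribosomal sgRNAs numbered 2, beside 24 of all sgRNAs, and *Rpl5* (-1.68), *Rpl6* (-0.46) and *Rps24* (-2.79) were no longer called over the 10 groups. The filter is set on the mean over all libraries, so that sgRNAs lost in most of them are the ones it takes out.

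In lymph nodes the values as deposited gave 20 depleted ribosomal genes in each of the 4 groups, beside 2059 to 2076 of all genes, and centring on the nontargeting mean gave 11 in draining lymph nodes under IgG and 5 under anti-PD-1, beside 55 and 26 of all genes. The median over sgRNAs gave 1 ribosomal gene that differed between organs, beside 31 of all genes in place of 5, and the 10th percentile of nontargeting sgRNAs gave 6 retained sgRNAs. Against all gene-targeting sgRNAs the T0 level of the ribosomal sgRNAs was -0.0562 in place of 0.12, and without 1 T0 replicate it ran from -0.30 (without replicate 3) to 0.36.

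Same-numbered libraries did not deviate together (median correlation of deviations from the group means -0.06 to -0.03). The undetected value after ComBat differs between replicate numbers, so a shared deviation may have been removed before this check. It therefore cannot decide on pairing, and the numbers were not taken to pair the samples. With the replicate number as a block, 19 ribosomal genes were depleted in each of the 10 groups outside lymph nodes and 0 in each lymph node group, 83 sgRNAs were depleted, and 0 genes differed by treatment or organ. With 1 library left out, depleted genes outside lymph nodes numbered 16 to 19, depleted sgRNAs 76 to 84, and no other call changed. Liver anti-PD-1 has no value without its 1 library, and lymph node groups have none where those libraries were left out. Of 1924 recomputed values, 1899 kept their direction and their side of the threshold, or, for counts and levels, stayed close to the first value. Signal, not reads, limits what low values can show.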

Other observations

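Over the 20 genes, the T0 level in replicate 1 minus that in replicate 3 had a Spearman rho of 0.68 with the change over the 20 libraries of primary tumour, liver, peritoneal metastasis and spleen, and over the 100 sgRNAs it was 0.58. Over all genes rho was 0.60, over all 10390 gene-targeting sgRNAs 0.46 and over the 250 nontargeting sgRNAs 0.31. These are descriptions across genes or sgRNAs of the same libraries, which share the T0 libraries on both sides, and genes are not independent replicates. For replicate 2 minus replicate 3 rho was 0.58 over the 20 genes, 0.50 over the 100 sgRNAs, 0.41 over all genes, 0.26 over all gene-targeting sgRNAs and 0.11 over the nontargeting sgRNAs.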
